A study of Homo sapiens with 18 samples.

Results

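The genes described here are the 62 whose signal was higher in VHL+/+ than in VHL-/- 786-O cells whichever shRNA the cells carried, out of 13141 genes in the table. A gene was taken when its mean over 3 arrays was higher in VHL+/+ cells by at least 0.4 on the log2 scale with a scrambled shRNA (SCR), with PBRM1 shRNA and with KDM5C shRNA, each on its own. This threshold was passed by 67 genes, and 5 were then left out because their symbols start with SLC, COL, ITG or MMP. They were COL4A1, MMP7, SLC16A5, SLC2A2 and SLC7A7. By the same threshold in the other direction, 103 genes were lower in VHL+/+ cells. The renal epithelial genes KCNJ16, ALDH1A1, CLDN2 and CFI all passed. The set was selected on the VHL differences of these same arrays, so those differences are given as a description without a test. Over all genes, the symbols left out included, 0.51% passed the threshold with each shRNA.

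786-O is an established cell line from a clear cell renal cell carcinoma (ccRCC), and it lacks functional VHL. The VHL-/- cells are this line, and the VHL+/+ cells are the same line with VHL re-expressed. Each background carried SCR, PBRM1 shRNA or KDM5C shRNA, with no further treatment, and each of the 6 groups had 3 Illumina HumanHT-12 arrays. Each gene was targeted with 1 shRNA construct, stably expressed in 1 cell line. In the labels, chip 1 carries the first 2 replicates of a group and chip 2 carries its replicate 3. The labels do not say whether replicates were separate cultures, so p-values measure only the spread between these arrays, which may be technical.

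VHL is the recognition subunit of a ubiquitin ligase that marks the alpha subunits of hypoxia-inducible factors (HIFs) for degradation. Without VHL these subunits accumulate and switch on the hypoxia response, which is the founding event of most ccRCC. The tumour is thought to arise from the proximal tubule, whose cells take back water, salts and small molecules from the filtrate and hold many metabolic enzymes. PBRM1 is a subunit of a chromatin remodelling complex and KDM5C is a histone demethylase, and the genes of both are mutated in ccRCC.

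The arrays of a group correlated with Pearson's r between 0.976 and 0.995 across genes, and no arrays were identical. Of 8 markers of renal tubular cancer cells, 7 were in the table and none lay among the dimmest 25% of genes by mean signal. In that range lay 5 of 6 immune markers, 5 of 7 endothelial and fibroblast markers and 1 of 3 podocyte markers. The targeted genes did not check the labels. PBRM1 signal was 7.38, 7.46 and 7.22 in VHL+/+ SCR arrays and 7.51, 7.09 and 7.02 in the VHL+/+ arrays labelled PBRM1 shRNA. In VHL-/- arrays it was 7.41, 7.24 and 7.26 with SCR and 7.16, 7.18 and 7.38 with the label PBRM1 shRNA. The fitted difference over both backgrounds was -0.10 ± 0.08 (SE, limma adjusted p = 0.515). KDM5C has no row in the table used here. VHL signal differed between VHL+/+ and VHL-/- means by 0.08 with SCR, 0.17 with PBRM1 shRNA and -0.01 with KDM5C shRNA, and the files do not say whether its probes lie within the re-expressed construct. HIF targets, given further on, were lower in the arrays labelled VHL+/+. Below, the names of the groups are those of the labels.

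Upstream sequences are shown first for KCNJ16, CLDN2, CFI and ALDH1A1, which the selection was asked to look for, and for JAG1, the remaining gene that was at least 2-fold higher with every shRNA. They are the 250 bases before an annotated transcription start, from the RefSeq table of GRCh38.p14, written 5′ to 3′ on the strand of the gene. Capitals mark each CCAAT box (CCAAT) and each core of the hypoxia response element to which HIFs bind (ACGTG or GCGTG), searched on both strands. For KCNJ16 and CLDN2, which have several starts, the window nearest to the first base of the chromosome among those with a CCAAT box is given.
KCNJ16 (chr17:70104595-70104844, plus strand): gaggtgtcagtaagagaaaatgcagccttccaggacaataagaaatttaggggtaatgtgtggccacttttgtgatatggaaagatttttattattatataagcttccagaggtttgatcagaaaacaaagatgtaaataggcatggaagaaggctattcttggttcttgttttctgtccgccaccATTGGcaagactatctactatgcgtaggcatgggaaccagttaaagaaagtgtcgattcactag
CLDN2 (chrX:106899914-106900163, plus strand): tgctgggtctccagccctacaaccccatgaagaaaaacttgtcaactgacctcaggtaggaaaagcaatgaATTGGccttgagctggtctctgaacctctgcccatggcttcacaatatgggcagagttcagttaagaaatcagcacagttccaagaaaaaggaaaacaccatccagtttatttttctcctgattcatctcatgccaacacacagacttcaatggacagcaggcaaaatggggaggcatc
CFI (chr4:109802000-109802249, minus strand): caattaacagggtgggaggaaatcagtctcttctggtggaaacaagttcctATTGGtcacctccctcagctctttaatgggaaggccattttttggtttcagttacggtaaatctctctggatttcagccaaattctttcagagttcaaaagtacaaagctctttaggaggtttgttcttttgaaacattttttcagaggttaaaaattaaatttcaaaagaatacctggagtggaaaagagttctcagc
ALDH1A1 (chr9:72953054-72953303, minus strand): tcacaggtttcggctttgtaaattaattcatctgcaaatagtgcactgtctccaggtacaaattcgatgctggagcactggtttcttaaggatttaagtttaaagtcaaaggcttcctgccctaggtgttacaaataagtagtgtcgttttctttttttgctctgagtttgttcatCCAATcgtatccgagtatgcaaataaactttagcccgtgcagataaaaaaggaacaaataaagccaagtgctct
JAG1 (chr20:10674000-10674249, minus strand): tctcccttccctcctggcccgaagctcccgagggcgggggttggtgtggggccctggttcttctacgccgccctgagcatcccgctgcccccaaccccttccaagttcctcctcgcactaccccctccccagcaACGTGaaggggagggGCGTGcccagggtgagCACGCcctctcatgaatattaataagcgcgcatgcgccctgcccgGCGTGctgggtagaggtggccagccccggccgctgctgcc
The box lay 64 bases before the start of KCNJ16, 179 before that of CLDN2, 199 before that of CFI and 74 before that of ALDH1A1. None of these 4 windows held a hypoxia core, whereas the JAG1 window held 4 between 116 and 40 bases before the start, and no CCAAT box. Over the 36 genes of the set with a window, 19 held a CCAAT box (52.8%), against 41.7% of the 9879 genes of the table with a window. A gene counts here when any of its windows holds the motif, so genes with more windows have more chances. The 36 genes had 63 windows and the 9879 genes had 14260, so shares of windows are given as well. Of the windows, 38.1% held a CCAAT box, against 33.3%. ACGTG was held by 9 of 36 genes (25%, against 28.3%) and GCGTG by 19 (52.8%, against 51.7%). ACGTG overlaps itself on the opposite strand in CACGTG, and no motif searched here contains another. The half-site of HNF1 (GTTAAT), a factor of renal epithelium, was held by CFI, DAB2, DHRS9 and DNAJC12 (11.1%, against 5.55%). The TATA box (TATAAA) was held by 7 genes (19.4%, against 8.66%). By window the shares were 6.35% against 4.27% for the HNF1 half-site and 14.3% against 6.49% for the TATA box. The activator protein 1 site (TGACTCA) was held by 2 genes (5.56%, against 4.29%) and the HNF4 half-site (CAAAGTC) by 1 (2.78%, against 3.1%). The E-box of SNAI and ZEB factors (CACCTG) was held by 5 (13.9%, against 20.4%). By window these shares were 3.17% against 3.13%, 1.59% against 2.29% and 9.52% against 15.8%, in the same order. The 63 windows of the set had a median GC content of 56.8%, against 64% over 14260 windows, and a median of 10 CG dinucleotides, against 20. These letters are matches in a window of the annotation and not sites shown to be bound. The 61 genes that could be placed lay on 18 chromosomes, with no more than 6 on any, and no pair started within 1 Mb of each other.

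The differences were modest in size. Their median was 0.60 on the log2 scale with SCR, 0.67 with PBRM1 shRNA and 0.61 with KDM5C shRNA, and they ran from 0.40 to 1.70. Only CLDN2, KCNJ16 and JAG1 were at least 2-fold higher with each shRNA, and 21 genes were at least 1.5-fold higher. The difference was largest with SCR for 13 genes, with PBRM1 shRNA for 32 and with KDM5C shRNA for 17. Just inside the threshold lay PLEK, POR, DNAJC12, SRI and IGFBP7, whose smallest difference was 0.40 or 0.41. Just outside lay MLEC (0.398), C22ORF36 (0.398), PDZK1 (0.397), AKR1B15 (0.395) and MFNG (0.394).

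**Figure D1:**
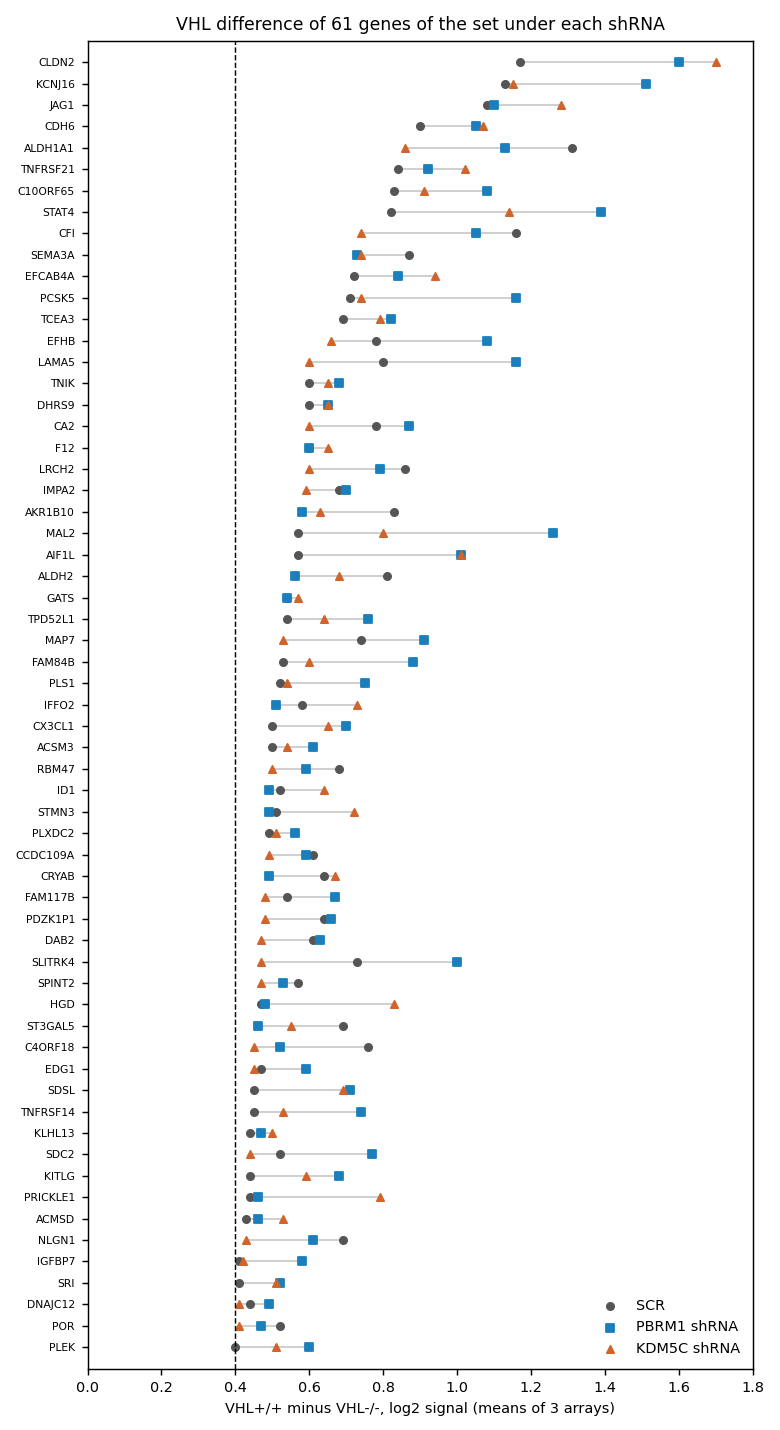
VHL+/+ minus VHL-/- difference of 61 of the 62 genes on the log2 scale (horizontal axis), one row per gene, with SCR (circles), PBRM1 shRNA (squares) and KDM5C shRNA (triangles); each point is a difference of means of 3 arrays and the dashed line is the threshold of 0.4. CLDN2, KCNJ16 and JAG1 lie above 1 with every shRNA, and most other genes lie between 0.4 and 1.

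All 3 VHL+/+ arrays were above all 3 VHL-/- arrays for 48 of the 62 genes with SCR, 46 with PBRM1 shRNA and 35 with KDM5C shRNA. Over all genes this held for 8.42%, 6.95% and 5.98%. It held with each shRNA for 30 genes (0.708% of all genes), and the 9 VHL+/+ arrays were above the 9 VHL-/- arrays for 16 (0.259%). Since the selection used these differences, nothing is read from the contrast with all genes. The 16 genes were JAG1, TNFRSF21, STAT4, EFCAB4A, PCSK5, EFHB, TNIK, ALDH2, PLS1, RBM47, HGD, TNFRSF14, KLHL13, KITLG, POR and PLEK. KCNJ16, CFI, ALDH1A1 and CLDN2 are not among them, and some of their VHL-/- arrays on chip 2 read above VHL+/+ arrays on chip 1. For CLDN2 this was so only between arrays with different shRNAs. With the fitted chip term taken off, the arrays did not overlap with any shRNA for 51 of the 62 genes, against 1.76% of all genes. The selection bears on this count as well, and nothing is read from it.

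Ion and fluid transport was the role of 6 genes, whose mean difference over the 3 shRNAs ran from 0.48 to 1.49. KCNJ16 is an inwardly rectifying potassium channel subunit of the tubule's basolateral membrane. With SCR it read 10.57, 10.28 and 11.26 in VHL+/+ arrays and 9.32, 9.17 and 10.25 in VHL-/- arrays, in the order of replicates 1 to 3. With PBRM1 shRNA it read 9.98, 10.14 and 11.22 against 8.90, 8.41 and 9.49. With KDM5C shRNA it read 10.09, 9.85 and 11.13 against 8.77, 8.58 and 10.25. In every group the array on chip 2 was the highest, and VHL+/+ and VHL-/- arrays overlapped with KDM5C shRNA alone, where the VHL-/- array on chip 2 exceeded both VHL+/+ arrays on chip 1. The differences of means were 1.13, 1.51 and 1.15.

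CLDN2 forms the cation-selective and water-permeable tight junction pore of the proximal tubule. With SCR it read 8.33, 7.91 and 8.80 in VHL+/+ arrays against 6.96, 6.81 and 7.75 in VHL-/- arrays. With PBRM1 shRNA the values were 8.39, 9.12 and 9.63 against 7.61, 7.06 and 7.67, and with KDM5C shRNA 9.28, 8.54 and 9.78 against 7.18, 6.90 and 8.40. The groups did not overlap with any shRNA, and the differences of 1.17, 1.60 and 1.70 were the largest of the set by their mean, at 2.81-fold. The other genes of this role were CA2, a carbonic anhydrase that serves bicarbonate reclamation, CCDC109A (now MCU, the pore of the mitochondrial calcium uniporter), EFCAB4A (now CRACR2B, a regulator of store-operated calcium entry) and SRI (sorcin, a calcium-binding protein). CA2 was higher by 0.78, 0.87 and 0.60.

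Metabolic enzymes made up 13 of the genes, with mean differences from 0.46 to 1.10. ALDH1A1 makes retinoic acid from retinal and is abundant in proximal tubule. With SCR it read 12.34, 12.07 and 12.74 in VHL+/+ arrays against 10.66, 10.64 and 11.91 in VHL-/- arrays. With PBRM1 shRNA it read 11.57, 11.83 and 12.74 against 10.95, 10.94 and 10.86, and with KDM5C shRNA 11.84, 11.37 and 12.17 against 10.61, 10.39 and 11.81. The groups were apart with the first 2 shRNAs and overlapped with KDM5C shRNA, where the VHL-/- array on chip 2 exceeded a VHL+/+ array. Its differences were 1.31, 1.13 and 0.86. DHRS9, a retinol dehydrogenase, was higher by 0.60, 0.65 and 0.65 at a lower signal.

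The gene listed as C10ORF65 is now HOGA1, the mitochondrial aldolase that ends hydroxyproline breakdown. It was higher by 0.83, 1.08 and 0.91. ALDH2, the mitochondrial acetaldehyde dehydrogenase, was higher by 0.81, 0.56 and 0.68. HGD acts in tyrosine breakdown, ACMSD in tryptophan breakdown, SDSL on serine and threonine, ACSM3 on medium-chain fatty acids, IMPA2 is an inositol monophosphatase, ST3GAL5 makes the ganglioside GM3, POR is the reductase that serves the cytochromes P450 and AKR1B10 is an aldo-keto reductase. AKR1B10 was higher by 0.83, 0.58 and 0.63, while its close paralog AKR1B15 missed the threshold with differences of 0.42, 0.72 and 0.39. Whether the probes of these paralogs tell them apart was not tested.

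Adhesion, polarity and the cytoskeleton took 14 genes, with mean differences from 0.51 to 1.01. CDH6 (K-cadherin), a cadherin of the developing and adult proximal tubule, read 10.23, 10.38 and 10.95 in VHL+/+ SCR arrays against 9.32, 9.38 and 10.16 in VHL-/- SCR arrays. With PBRM1 shRNA it read 9.83, 10.07 and 10.98 against 9.34, 9.12 and 9.27, and with KDM5C shRNA 10.24, 9.83 and 10.50 against 8.75, 8.65 and 9.96. The groups were apart with SCR and PBRM1 shRNA and overlapped by 1 array with KDM5C shRNA. LAMA5, a laminin chain of the tubular and glomerular basement membrane, was higher by 0.80, 1.16 and 0.60. PLS1 bundles actin in microvilli, MAP7 binds microtubules in epithelial cells, MAL2 serves apical transcytosis and DAB2 is the endocytic adaptor of megalin. The rest of this group were SDC2, AIF1L, PRICKLE1, PLEK, STMN3, NLGN1, SLITRK4 and IFFO2.

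Of secreted proteases and their inhibitors there were 4. CFI is the complement protease that inactivates C3b and C4b. With SCR it read 8.92, 8.61 and 9.71 in VHL+/+ arrays against 7.52, 7.62 and 8.63 in VHL-/- arrays. With PBRM1 shRNA it read 7.89, 7.92 and 9.77 against 7.53, 7.32 and 7.59, and with KDM5C shRNA 7.96, 7.61 and 9.15 against 7.22, 6.95 and 8.33. The groups were apart with PBRM1 shRNA and overlapped with SCR and KDM5C shRNA. In the VHL-/- PBRM1 shRNA group the array on chip 2 read close to those on chip 1, while in each of the other groups it was the highest by a wider margin. The differences were 1.16, 1.05 and 0.74, and with PBRM1 shRNA the difference was 0.48 on chip 1 and 2.18 on chip 2. PCSK5 is a proprotein convertase, F12 the coagulation factor that starts contact activation, and SPINT2 the inhibitor of hepsin-like serine proteases in epithelium. The PCSK5 groups were apart with each shRNA, and its differences were 0.71, 1.16 and 0.74.

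Ligands, receptors and signal transducers numbered 9, with mean differences from 0.47 to 1.15. JAG1, a ligand of Notch receptors, read 10.22, 10.08 and 10.12 in VHL+/+ SCR arrays against 8.95, 8.66 and 9.56 in VHL-/- SCR arrays. With PBRM1 shRNA it read 9.81, 10.43 and 10.09 against 9.30, 9.29 and 8.44, and with KDM5C shRNA 10.21, 9.74 and 9.89 against 7.99, 8.78 and 9.23. All 9 VHL+/+ arrays were above all 9 VHL-/- arrays, and the VHL-/- arrays were the more scattered. TNFRSF21, a death-domain receptor, was higher by 0.84, 0.92 and 1.02 with the same separation. SEMA3A, a secreted semaphorin, was higher by 0.87, 0.73 and 0.74. The others were TNIK (a kinase of Wnt signalling), TNFRSF14, CX3CL1 (fractalkine), KITLG (the ligand of KIT), IGFBP7 and EDG1. EDG1 is an older symbol shared by S1PR1 and HEXIM1, so its identity is not settled here.

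Transcription and RNA had 4 genes. STAT4, a transcription factor of cytokine signalling, was higher by 0.82, 1.39 and 1.14 and was apart in all 9 against 9 arrays. TCEA3 is an elongation factor, RBM47 an RNA-binding protein of epithelium and ID1 an inhibitor of basic helix-loop-helix factors. The last 12 genes had other or uncertain roles, among them EFHB, LRCH2, GATS, TPD52L1, FAM84B (now LRATD2), PLXDC2, FAM117B, KLHL13, C4ORF18 (now GASK1B), the small heat shock protein gene CRYAB and the co-chaperone gene DNAJC12. PDZK1P1 is a transcribed pseudogene of PDZK1, which anchors transporters at the brush border. PDZK1P1 passed with 0.64, 0.66 and 0.48 and PDZK1 just missed with 0.55, 0.70 and 0.40, and whether the probes tell these near-identical copies apart was not tested.

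**Figure D2:**
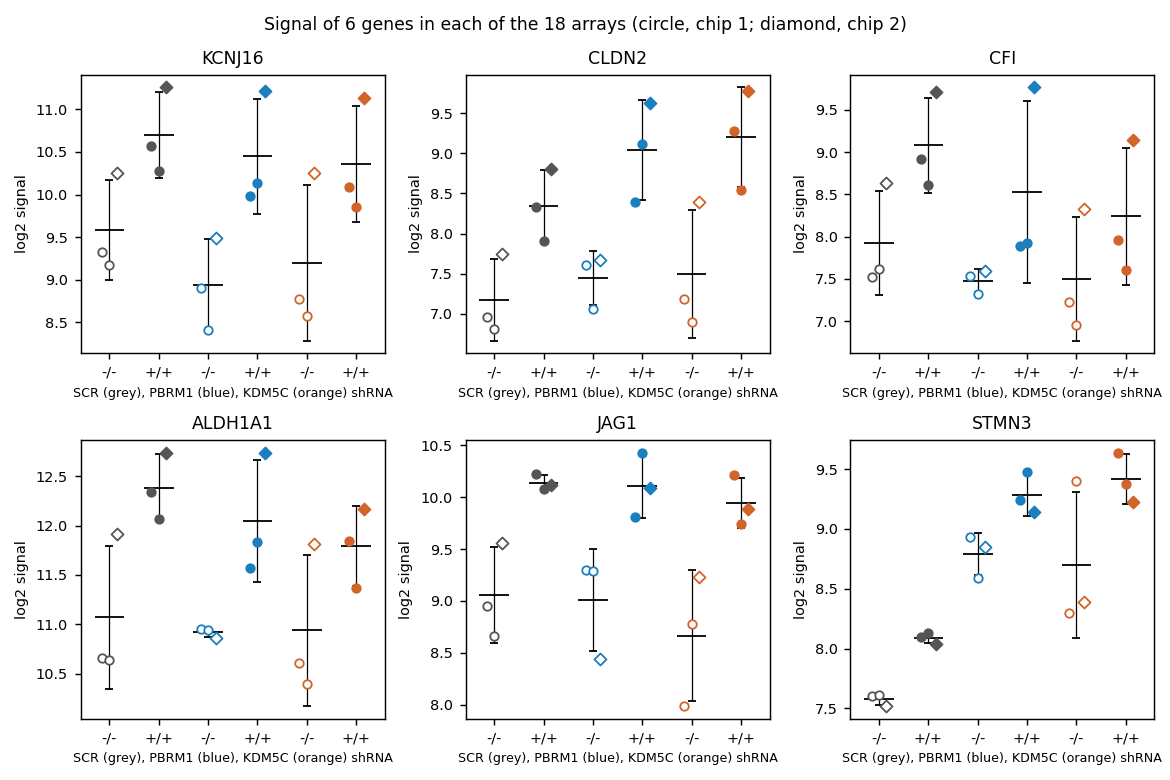
Log2 signal (vertical axis) of KCNJ16, CLDN2, CFI, ALDH1A1, JAG1 and STMN3 in each of the 18 arrays; open symbols are VHL-/- and filled symbols VHL+/+ arrays, circles lie on chip 1 and diamonds on chip 2, and lines with bars give the mean ± SD of 3 arrays. KCNJ16, CLDN2 and CFI read highest on chip 2 in each group, JAG1 shows no overlap between VHL+/+ and VHL-/- arrays, and STMN3 is higher with either shRNA than with SCR.

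The chip comparison is independent of the selection, because every group has the same chips. Of the 62 genes, 39 differed between chips at a limma adjusted p under 0.05, against 23.8% of all genes. They were mostly higher on chip 2, at 36 genes against 3, where all genes split evenly (12.1% higher and 11.8% lower). The median chip difference of the set was 0.34, against -0.01 over all genes. The largest were C10ORF65 (1.43 ± 0.08, SE, adjusted p = 5.01e-08), IMPA2 (1.41 ± 0.09, adjusted p = 6.82e-08), CFI (1.11 ± 0.14, adjusted p = 4.87e-05) and KCNJ16 (1.09 ± 0.09, adjusted p = 1.07e-06). CLDN2 (0.83 ± 0.14), ALDH1A1 (0.77 ± 0.14), CA2 (0.75 ± 0.07) and CDH6 (0.71 ± 0.11) were also higher on chip 2.

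The median chip difference was above 0 in both backgrounds, at 0.35 in VHL+/+ cells and 0.28 in VHL-/- cells. By role, 10 of 13 metabolic enzymes, 4 of 6 transport genes and 3 of 4 transcription and RNA genes passed as higher on chip 2. So did 7 of 14 adhesion genes, 2 of 4 proteases and inhibitors, 7 of 12 genes of other role and 3 of 9 ligands and receptors. Whether roles differ in this was not tested. JAG1 (0.10 ± 0.18, adjusted p = 0.735), STMN3 (-0.17 ± 0.12, adjusted p = 0.335) and AKR1B10 (0.08 ± 0.12, adjusted p = 0.686) did not pass. The 3 lower genes were PRICKLE1 (-0.24), TNFRSF21 (-0.22) and TNIK (-0.21). Chip 2 holds replicate 3 of each group and nothing else, so chip and replicate 3 cannot be told apart. Within chips, the VHL difference was above 0 on both with each shRNA for 60 of 62 genes, and the exceptions on chip 2 with KDM5C shRNA were DAB2 (-0.04) and SLITRK4 (0.00). Some of the values above 0 were small, such as 0.01 for MAL2 with SCR on chip 2. The selection used means of these same arrays, so this count is a description and not a check. The chip difference was larger than the mean VHL difference for 8 of the 62 genes. They were IMPA2 (1.41 against 0.66), C10ORF65 (1.43 against 0.94), PLXDC2 (0.73 against 0.52), ACSM3 (0.72 against 0.55), CFI (1.11 against 0.98), LAMA5 (0.90 against 0.85), IGFBP7 (0.51 against 0.47) and CA2 (0.75 for both at this rounding).

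**Figure D3:**
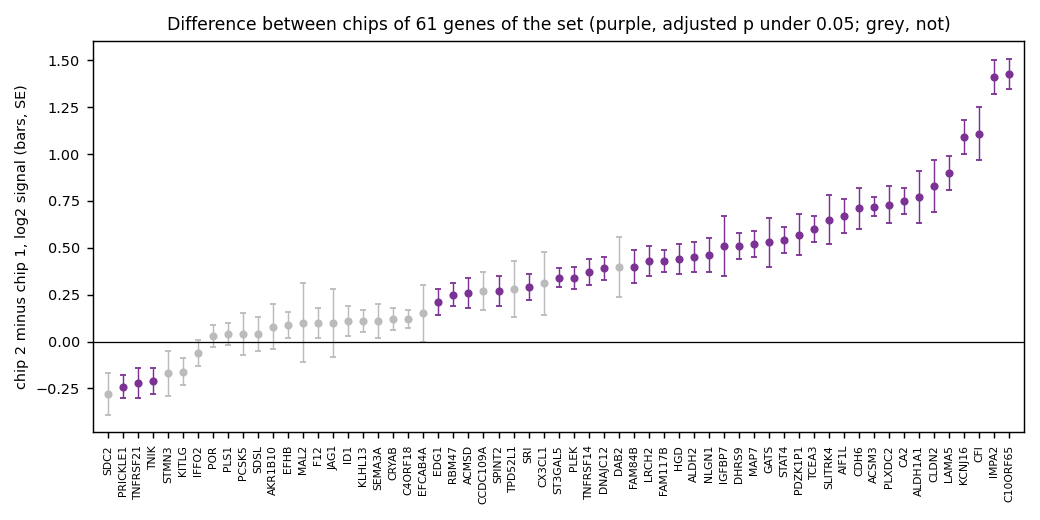
Difference between chip 2 and chip 1 (log2 signal, vertical axis) of 61 of the 62 genes with its SE from the fit over 18 arrays, in order of size; purple marks adjusted p under 0.05 and grey the rest. Most genes lie above 0, up to 1.43 for C10ORF65, and 3 of those past the threshold lie below 0.

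The effect of each shRNA, averaged over both backgrounds, is also independent of the VHL differences. A gene was called at a limma adjusted p under 0.05 and a change of at least 1.5-fold. With PBRM1 shRNA 7 of the 62 genes (11.3%) were called against 1.34% of all genes, 2 higher and 5 lower, and 55 did not pass. With KDM5C shRNA 10 (16.1%) were called against 1.19% of all genes, 4 higher and 6 lower. Both shares are above that background. The genes of the set also varied more within groups than genes at large, with a median residual SD of 0.17 against 0.12. None lay among the dimmest 25% of genes by mean signal over all 18 arrays, which takes in the groups where they were selected to be high. The part of spread and signal in the share was not tested. By adjusted p alone, 25 genes passed with PBRM1 shRNA (11.7% of all genes) and 27 with KDM5C shRNA (11%). The 25 were 7 higher (6.07% of all genes) and 18 lower (5.66%), and the 27 were 8 higher (5.46%) and 19 lower (5.55%). The directions of the called genes set 2 higher against 0.708% and 5 lower against 0.632% with PBRM1 shRNA, and 4 higher against 0.685% and 6 lower against 0.51% with KDM5C shRNA. Both comparisons use the same SCR arrays.

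STMN3, a stathmin that destabilises microtubules, rose most. In VHL+/+ arrays it read 8.10, 8.13 and 8.04 with SCR, 9.24, 9.48 and 9.14 with PBRM1 shRNA and 9.64, 9.38 and 9.23 with KDM5C shRNA. In VHL-/- arrays it read 7.60, 7.61 and 7.52 with SCR, 8.93, 8.59 and 8.85 with PBRM1 shRNA and 8.30, 9.40 and 8.39 with KDM5C shRNA. No array with either shRNA was below an SCR array of the same background. The changes were 1.20 ± 0.14 (SE, adjusted p = 2.67e-05) and 1.22 ± 0.14 (adjusted p = 2.58e-05), larger than its VHL differences of 0.51, 0.49 and 0.72. AKR1B10 rose by 0.84 ± 0.14 with PBRM1 shRNA (adjusted p = 0.000931) and by 0.86 ± 0.14 with KDM5C shRNA (adjusted p = 0.000811). These genes are higher both with VHL and with either shRNA.

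C4ORF18 (GASK1B), which encodes a Golgi-associated protein, fell with both. In VHL+/+ arrays it read 8.34, 8.31 and 8.56 with SCR, 7.57, 7.29 and 7.51 with PBRM1 shRNA and 7.14, 7.45 and 7.47 with KDM5C shRNA. In VHL-/- arrays the values were 7.54, 7.60 and 7.77, then 6.96, 6.91 and 6.95, then 6.94, 6.86 and 6.91. Within a background every SCR array was above every array with either shRNA, while the arrays of the shRNAs overlapped each other, and the changes from SCR were -0.82 ± 0.06 (adjusted p = 3.91e-07) and -0.89 ± 0.06 (adjusted p = 1.37e-07). CRYAB, which encodes αB-crystallin, read 8.17, 8.11 and 8.39 in VHL+/+ SCR arrays against 7.43, 7.13 and 7.54 with PBRM1 shRNA and 7.36, 7.40 and 7.66 with KDM5C shRNA. In VHL-/- arrays it read 7.52, 7.65 and 7.58, then 6.86, 6.88 and 6.89, then 6.79, 6.87 and 6.75. It fell by 0.78 ± 0.07 (adjusted p = 1.24e-06) and by 0.77 ± 0.07 (adjusted p = 1.84e-06). With either shRNA the VHL+/+ means of C4ORF18 and CRYAB were below their VHL-/- SCR means, at 7.46 and 7.35 against 7.64 and at 7.37 and 7.47 against 7.59. Their VHL-/- means with the shRNAs were 6.94 and 6.90 for C4ORF18 and 6.88 and 6.80 for CRYAB. The dimmest 25% of genes by mean signal end near 6.90. Whether low signal limits the size of these falls was not tested.

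SEMA3A fell by 0.73 ± 0.11 with PBRM1 shRNA and 0.69 ± 0.11 with KDM5C shRNA, and FAM84B by 0.80 ± 0.11 and 0.66 ± 0.11. TPD52L1 was called with PBRM1 shRNA (-0.70 ± 0.17, adjusted p = 0.0143), with a value of -0.46 ± 0.17 with KDM5C shRNA (adjusted p = 0.108). Called with KDM5C shRNA and not with PBRM1 shRNA were, among others, CX3CL1 (0.69 ± 0.19, adjusted p = 0.0288), CLDN2 (0.59 ± 0.16, adjusted p = 0.0268) and CFI (-0.64 ± 0.16, adjusted p = 0.0182). With PBRM1 shRNA the same genes had 0.38 ± 0.19, 0.49 ± 0.16 and -0.50 ± 0.16, none of them called. In all, 6 genes were called with both shRNAs, 11 with either and 51 with neither. Each called gene changed the same way within both chips. The calls used these same arrays, so that is a description and not a check. Between PBRM1 shRNA and KDM5C shRNA limma called 0 of the 62 genes and 0% of all genes, while 2 of the 62 and 531 of all genes had an unadjusted p under 0.05.

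**Figure D4:**
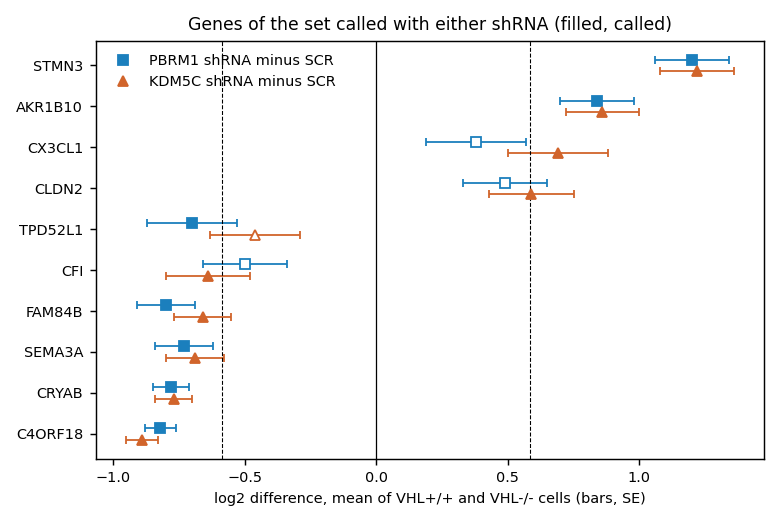
Change of 10 of the 11 genes called with PBRM1 shRNA (squares) or KDM5C shRNA (triangles) against SCR, as log2 differences averaged over VHL+/+ and VHL-/- cells (horizontal axis) with SE bars; filled symbols are called and dashed lines mark 1.5-fold. STMN3 and AKR1B10 lie to the right and C4ORF18, CRYAB, SEMA3A and FAM84B to the left with both shRNAs.

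Among the renal genes, KCNJ16 passed the adjusted p and missed 1.5-fold with PBRM1 shRNA (-0.45 ± 0.11, adjusted p = 0.0107) and with KDM5C shRNA (-0.36 ± 0.11, adjusted p = 0.0371). CA2 likewise had -0.53 ± 0.08 (adjusted p = 0.000618) and -0.33 ± 0.08 (adjusted p = 0.0182). ALDH1A1 had -0.24 ± 0.16 (adjusted p = 0.40) and -0.36 ± 0.16 (adjusted p = 0.177), and JAG1 -0.04 ± 0.21 (adjusted p = 0.942) and -0.29 ± 0.21 (adjusted p = 0.435). CLDN2 alone of the 4 named renal genes had positive values with both.

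The calls of CLDN2, CX3CL1 and CFI with KDM5C shRNA were sensitive to single arrays. Without the chip term 7 genes were called with KDM5C shRNA, and CLDN2 (adjusted p = 0.309), CFI (adjusted p = 0.391) and CX3CL1 (adjusted p = 0.078) were not among them. For CLDN2, dropping VHL-/- KDM5C shRNA replicate 3 gave 0.48 (adjusted p = 0.0715), and dropping VHL+/+ KDM5C shRNA replicate 1 gave 0.49 (adjusted p = 0.0741). It also lost its call without VHL+/+ KDM5C shRNA replicate 3, VHL+/+ SCR replicate 2 or 3, or VHL-/- SCR replicate 2 or 3. CX3CL1 lost its call, with adjusted p between 0.0505 and 0.0803, without any one of VHL+/+ SCR replicates 1 and 3, VHL+/+ KDM5C shRNA replicates 2 and 3, VHL-/- SCR replicates 1, 2 and 3, and VHL-/- KDM5C shRNA replicates 1 and 2. CFI had adjusted p = 0.0533 without VHL+/+ SCR replicate 1 and 0.0521 without VHL+/+ KDM5C shRNA replicate 2. Without VHL-/- KDM5C shRNA replicate 3, 6 genes were called, and FAM84B (-0.57) and SEMA3A (-0.58) were among those short of 1.5-fold.

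Of 50 proximal tubule genes, 28 were in the table. The set held 3 of these, CLDN2, CDH6 and ALDH1A1, whose VHL differences are not tested because they were used in the selection. Among the 25 outside the set, PDZK1 was called higher with PBRM1 shRNA (0.70, limma adjusted p = 0.00872), and 0 were called higher with SCR or KDM5C shRNA. Over all genes, by adjusted p and 1.5-fold, 0.342% were called higher with SCR, 0.51% with PBRM1 shRNA and 0.327% with KDM5C shRNA. At an unadjusted p under 0.05 stood 8, 9 and 7 of the 28 with SCR, PBRM1 shRNA and KDM5C shRNA. These counts take in either direction and the genes of the set. The share of all genes at that p is not given, so nothing is read from them. The medians of the 25 were 0.03, 0.06 and 0.04, against 0.00 over all genes. Of 15 genes of the loop of Henle, distal tubule and collecting duct the set held KCNJ16, and limma called 0 of the 14 others with any shRNA. An unadjusted p under 0.05 was found for 2, 3 and 4 of the 15, KCNJ16 included, again without a share of all genes beside it. Of 34 junction, polarity and keratin genes the set held SPINT2, and CGNL1, a junction protein, was called with PBRM1 shRNA (0.77, limma adjusted p = 0.00125).

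Of 21 retinoid genes the set held ALDH1A1 and DHRS9, and limma called 0 of the 19 outside the set in the VHL contrast. An unadjusted p under 0.05 was found for 5, 4 and 4 of the 21, those of the set included, also without a share of all genes. Of 17 complement genes it held CFI alone. No gene of the set stood among 24 mesenchymal transition genes. In that list PLAUR was called lower with SCR (-0.70, limma adjusted p = 0.0221).

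HIF targets went the other way. Of 44 in the table, 10 were called lower in VHL+/+ cells with SCR, 13 with PBRM1 shRNA and 13 with KDM5C shRNA, against 0.685%, 0.51% and 0.563% of all genes. VLDLR, with PBRM1 shRNA, was the 1 call in the other direction (0.64, limma adjusted p = 0.0309). The medians were -0.23, -0.28 and -0.30. ADM (adrenomedullin) differed by -1.78, -1.94 and -2.06, NDRG1 by -1.71, -1.77 and -2.28, CCND1 (cyclin D1) by -1.61, -1.62 and -1.65, and STC1 by -1.36, -1.37 and -1.50. Without the chip term the counts called lower were 5, 6 and 7. 

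**Figure D5:**
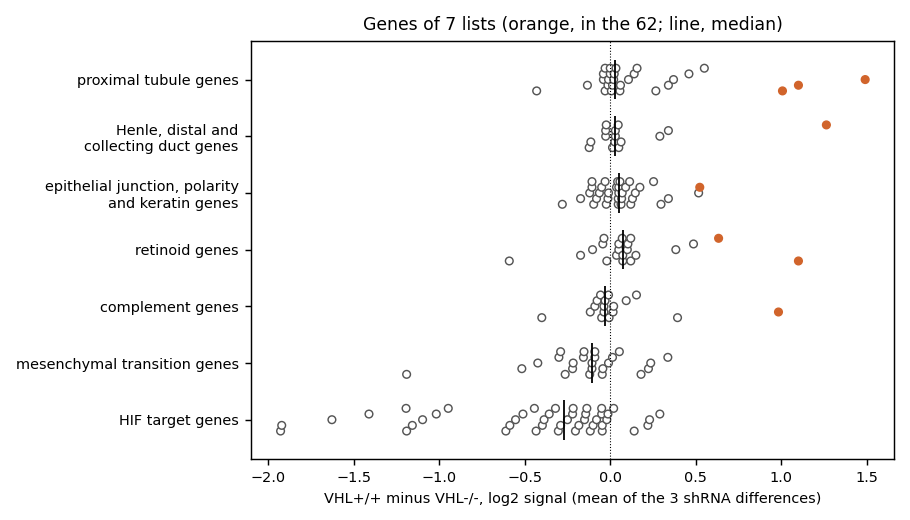
VHL+/+ minus VHL-/- difference (log2 signal, mean of the 3 shRNA differences, horizontal axis) of each gene of 7 lists; orange points belong to the 62 genes and black lines are list medians. The orange points lie to the right of the medians of their lists, as the selection on these differences sets, SPINT2 lies level with CGNL1, which is outside the set, at 0.52, and HIF targets reach below -1.9.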

How the data were processed

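The 18 arrays (3 in each of 6 groups) were Illumina HumanHT-12 V4 arrays of total RNA from 786-O cells. Before they deposited the table, the authors exported the arrays from GenomeStudio, corrected the background with limma so that values stayed positive, took log2 and applied quantile normalization. They retained probes detected at 0.05 and gave each gene the mean of its probes. Averaging can hide probes of a gene that disagree. Detection calls were not used here. Precision is limited by the number of arrays.

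The members and the gene lists were chosen with earlier results of these data known. Groups came from the labels. Tests used limma 3.58.1 in R 4.3.3 on all 18 arrays with terms for group and chip (11 residual degrees of freedom), and Benjamini-Hochberg adjustment over 13141 genes. Gene sets were described by counts and medians alone. The fit was tested on simulated data. Symbols were matched to RefSeq of GRCh38.p14: 55 members equal a current symbol, 6 a synonym of 1 gene and 1 a synonym of several genes. The text names the 20 members with the largest smallest difference, those on a fixed list, the 5 just inside and the 5 genes just outside the threshold, up to 5 called members each way per shRNA, PBRM1, KDM5C, VHL, and up to 4 called genes of a list. Other members were named by role after their values were seen. Alternatives were another threshold, no chip term, a replicate block, fewer arrays or genes, median centring, cyclic loess, trend and robust moderation, another fold threshold, medians, each chip alone, and each array left out. Some genes are not reported here by name and are not drawn in the plots that label genes, and they stay in the counts.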

Additional observations from a re-analysis of the deposited data

How the results depend on the processing

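The number of genes in the set was 136 at a threshold of 0.3, 33 at 0.5 and 21 at 1.5-fold, and lay between 43 and 77 when each array was left out, the lowest without VHL+/+ KDM5C shRNA replicate 3 and the highest without VHL-/- SCR replicate 3. In all 18 such sets 23 of the 62 genes were kept, and IGFBP7 was kept in the fewest, at 9. Chip 1 alone gave 47 genes, 42 of them among the 62, and chip 2 alone gave 61, of which 32 were among the 62. At 2-fold, 33 genes were called with PBRM1 shRNA and 27 with KDM5C shRNA, and 1 gene of the set with each, STMN3. With no fold threshold 1542 and 1446 were called, 25 and 27 of them in the set. Leaving out each array gave 7 to 9 called genes of the set with PBRM1 shRNA and 6 to 10 with KDM5C shRNA, the lowest without VHL-/- KDM5C shRNA replicate 3. For the VHL contrast the genes called with SCR, PBRM1 shRNA and KDM5C shRNA were 135, 134 and 117, and 40, 43 and 38 at 2-fold, 420, 311 and 364 with no fold threshold, and 60, 39 and 54 with no chip term. With only the arrays of the comparison, 55 were called with PBRM1 shRNA and 43 with KDM5C shRNA. Leaving out each array gave 79 to 174 with SCR (79 when VHL+/+ SCR replicate 1 and 88 when VHL-/- SCR replicate 1 was left out), 88 to 138 with PBRM1 shRNA (the lowest when VHL+/+ PBRM1 shRNA replicate 3 was left out) and 87 to 143 with KDM5C shRNA. The alternatives for the VHL contrast, and leaving out each array for the chip comparison (2220 to 3454 genes, against 3130), were chosen after seeing the data. The causes of these changes were not tested, beyond the smaller number of arrays or the other threshold that the alternative itself sets. Of 459 values of single genes under alternatives, 418 stayed on their side of the threshold, 41 did not, and 0 changed sign. Same-numbered arrays share a chip, which the fit holds as a term, and the labels give no shared culture or day. Of 45 same-numbered pairs of arrays, 37 deviated from their group means together with a correlation above 0.1 (median 0.284, range -0.172 to 0.722). These deviations include the chip difference, so they do not tell whether the numbers mark pairs beyond the chip. The main fit has no term for the replicate number other than the chip. With the replicate block in place of the chip term, 7 genes of the set were called with PBRM1 shRNA, 10 with KDM5C shRNA and 0 between them.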
